A study of Mus musculus with 8 samples.

Results

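The regions described here are PU.1 peaks that were called between genes in a clone of a murine leukaemia line given wild-type PU.1, and that overlapped neither a PU.1 peak of a separate empty-vector clone nor a CEBPA peak of either clone. They were chosen by the peak calls and by position. Of the 15683 PU.1 peaks of PU.1+ cells, 12714 (81.1%) overlapped no PU.1 peak of PU.1- cells by even 1 bp, and 10533 (67.2%) overlapped no CEBPA peak of either line. A total of 9482 peaks met both conditions. After removal of 1013 peaks with a centre within 1000 bp of a protein-coding transcript start and 4368 peaks inside protein-coding genes, 4101 intergenic peaks remained, 26.1% of all PU.1+ peaks. These calls and positions are the selection itself and are given as a description.

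The cells were X18.1.1, a radiation-induced murine acute myeloid leukaemia (AML) line with a deletion of 1 *Pu.1* allele and mutations in the remaining allele, so both groups kept the mutant protein. PU.1- cells carried the empty retroviral vector and PU.1+ cells carried PuER, wild-type PU.1 joined to an oestrogen receptor domain that responds to 4-hydroxytamoxifen (OHT). Each group was 1 clone grown from retrovirally transduced, puromycin-selected cells, and both received 100 nM OHT for 2 h. Chromatin immunoprecipitation sequencing (ChIP-Seq), which sequences the DNA that an antibody pulls down with its target protein, gave 1 PU.1 and 1 CEBPA peak list for each clone. With 1 library for each antibody and clone, differences between the clones had no replicate check and cannot be told apart from differences between the libraries. Every peak was 400 bp wide and was deposited as coordinates only, so peak heights and sequencing depth are unknown, and a peak missing from a list does not show that the protein was absent. Intervals below are 95% intervals (exact Clopper-Pearson for a share, Newcombe for a difference of shares) and cover counting error only. The cell type could not be checked against marker transcripts in these lists.

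PU.1 is an ETS-family transcription factor that is required for the monocytic and B-cell lineages and binds DNA through a purine-rich core, GGAA, with flanking bases that separate it from other ETS proteins. In macrophages much of its binding lies at distal enhancers, where it is known to bind beside partners such as CEBPA, RUNX1, AP-1 and the interferon regulatory factors IRF4 and IRF8. The IRF proteins join PU.1 at composite sites in which the ETS core is followed closely by a GAAA element of the interferon-response kind.

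Sequences of the central 80 bp (mm10, forward strand) show the kinds of site that recurred. The first set lay near macrophage genes, and capitals mark the ETS site GGAAGT, which reads ACTTCC on the other strand, or an ETS-IRF composite, defined as GGAA followed by GAAA after 2 or 3 bases. The peak upstream of *Mpeg1*, the gene of a pore-forming macrophage protein, lay at chr19:12457532-12457611 and held an ETS site and a composite that overlaps the sequence GAGGAAGT. The peak before *Sirpa*, an inhibitory receptor of macrophages, lay at chr2:129586280-129586359. The peak beyond *Batf3* lay at chr1:191115003-191115082, and that before *Fcgr2b*, the inhibitory receptor for IgG, at chr1:170978907-170978986 with no site of either kind. These are examples of the peaks nearest to starts of named macrophage genes. Of the others, those of *Ly86*, *Ctsd*, *Acp5* and *Batf* also held neither site, and that of *Fos* held a composite only.
Mpeg1: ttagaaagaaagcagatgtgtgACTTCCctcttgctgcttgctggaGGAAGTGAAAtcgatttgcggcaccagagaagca
Sirpa: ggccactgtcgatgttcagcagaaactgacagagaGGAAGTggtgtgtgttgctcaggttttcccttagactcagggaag
Batf3: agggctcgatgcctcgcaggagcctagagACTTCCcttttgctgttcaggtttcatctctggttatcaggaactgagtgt
Fcgr2b: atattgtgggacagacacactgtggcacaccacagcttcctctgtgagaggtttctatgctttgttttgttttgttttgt

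The second set shows the peaks with the most ETS sites and 2 peaks of the longest run, which lay between *2010109I03Rik* and *Ly6e*. The peaks at chr16:70803760-70803839, between *Gbe1* and *Robo1*, and at chr4:150874658-150874737, between *Errfi1* and *Park7*, each held 4 ETS sites in a tandem repeat. The peak at chr1:161139637-161139716, between *Klhl20* and *Ankrd45*, held 3. The peaks of the run lay at chr15:74920786-74920865 and chr15:74931772-74931851, and each held an ETS site and a composite.
Gbe1-Robo1: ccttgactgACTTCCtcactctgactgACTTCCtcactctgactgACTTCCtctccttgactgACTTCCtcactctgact
Errfi1-Park7: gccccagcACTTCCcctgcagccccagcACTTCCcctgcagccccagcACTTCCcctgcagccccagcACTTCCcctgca
Klhl20-Ankrd45: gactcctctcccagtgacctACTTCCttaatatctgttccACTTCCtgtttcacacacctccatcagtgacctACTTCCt
Ly6e run, left: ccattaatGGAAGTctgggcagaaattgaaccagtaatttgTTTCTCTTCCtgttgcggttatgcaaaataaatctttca
Ly6e run, right: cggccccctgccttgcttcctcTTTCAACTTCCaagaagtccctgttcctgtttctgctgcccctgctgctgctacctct

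ETS sites were found in 1863 of the 4101 peaks, 45.4% (43.9 to 47.0), against 4.41% of flanking windows of equal length, placed 2000 bp up- and downstream of each centre. Across all PU.1+ peaks the share was 43.5%. The bare GGAA core was present in 92.4% of the peaks and in 55.6% of the flanking windows. The longer PU.1-type site GAGGAAGT, the form that PU.1 is known to favour, was held by 705 peaks, 17.2% (16.05 to 18.4), against 0.415% of flanking windows and 15.2% of all PU.1+ peaks. The ETS1-type sites CAGGAAGT together with CCGGAAGT were less frequent, at 5.63% (4.95 to 6.38), which gave 3.05 peaks with a PU.1-type site for each peak with an ETS1-type site. Of the 2 bases before GGAAGT, GA was the most frequent, at 736 of 2156 sites (34.1%), followed by AA at 13.8%. In the flanking windows CA led, at 15.0%, and GA made up 9.09%. All motifs were counted on both strands, the ETS site contains the core and is contained in the PU.1-type and ETS1-type sites, and a match describes the letters, not a bound site.

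The ETS-IRF composite was present in 794 peaks, 19.4% (18.2 to 20.6), against 1.61% of flanking windows and 14.6% of all PU.1+ peaks. Composites with 2 bases between the cores were carried by 651 peaks (15.9%) and those with 3 bases by 166 (4.05%), against 0.805% and 0.829% of flanking windows. This split by spacing was chosen after the values were seen. Among the 665 composites with 2 bases between the cores, those bases were GT in 221 (33.2%), which makes the composite overlap an ETS site, and CT in 138 (20.8%). Composites occurred together with an ETS site in 365 peaks (8.90%) and without one in 429 (10.5%). A further 1498 peaks (36.5%) had an ETS site alone, 1496 (36.5%) had a GGAA core but neither site, and 313 (7.63%) had no core.

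Motifs of other factors stood closer to their flanking level. RUNX sites, TGTGGT with its variant TGCGGT, were present in 9.68% (8.79 to 10.6) against 6.84% of flanking windows and 11.5% of all PU.1+ peaks. AP-1 sites, TGANTCA, stood at 3.49% (2.95 to 4.10) against 2.48%, and CEBP sites, TTGCNNAA, at 3.83% (3.26 to 4.46) against 3.29%. CEBP sites were present in 7.31% of all PU.1+ peaks. Absence of a CEBPA call chose the class, so its CEBP share near the flanking level is partly the selection. GATA sites, AGATAA with its variant TGATAA, and the GC box GGGCGG stood below their flanking level, at 5.90% (5.20 to 6.67) against 8.97% and at 0.610% (0.395 to 0.899) against 1.27%. Across all PU.1+ peaks GATA sites were also below their flanking windows, at 5.25% against 8.48%, so this was not particular to the class. The GC box stood at 1.645% of all PU.1+ peaks and 1.45% of their flanking windows. E-boxes (searched as CAGCTG, as CACGTG and as CATCTG) stood at 9.56% against 9.49% of flanking windows and 10.4% of all PU.1+ peaks. A CG dinucleotide was present in 46.2% of the peaks, 46.3% of the flanking windows and 53.7% of all PU.1+ peaks.

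Sites of the ETS kinds were centred on the peaks. In the middle 40 bp there were 17.2 ETS sites for every 100 peaks and 20 bp, against 1.49 in the outermost 80 bp of the peaks. The values were 6.13 and 0.171 for the PU.1-type site and 7.10 and 0.390 for the composite. RUNX sites were spread more evenly, with 2.68 and 1.80, and CEBP sites with 1.04 and 0.817. The even spread of CEBP sites can also reflect the selection, because peaks that overlapped a CEBPA peak were left out.

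**Figure D1:**
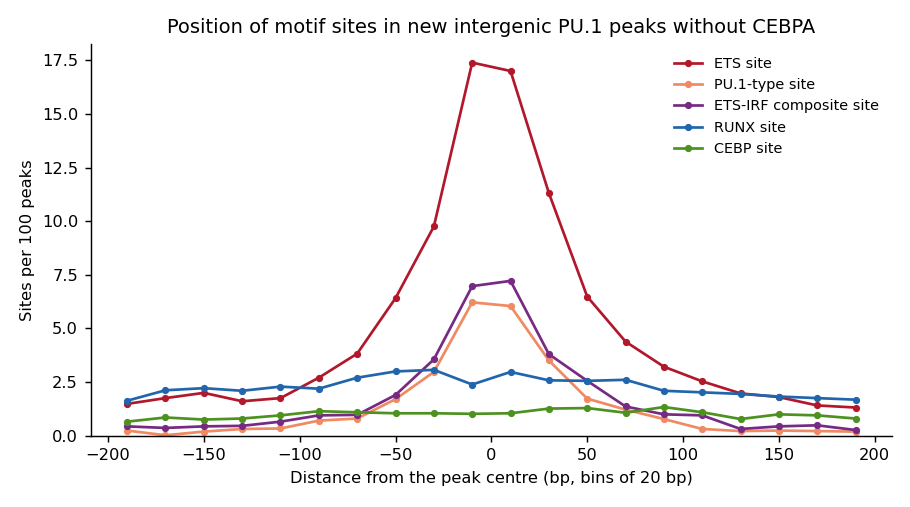
Number of motif sites per 100 peaks (vertical axis) in bins of 20 bp by distance from the peak centre in bp (horizontal axis) in the 4101 new intergenic PU.1 peaks without CEBPA. Lines join the bins of each motif. ETS, PU.1-type and composite sites peak at the centre, whereas RUNX and CEBP sites vary less across the peak.

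Compared with the other classes, the most alike were the 4368 new PU.1 peaks without CEBPA that lay inside genes. Their ETS share was 46.0%, a difference of -0.54 percentage points (-2.66 to 1.58) from the intergenic peaks, and their PU.1-type share was 17.5%, a difference of -0.28 points (-1.89 to 1.34). Both intervals hold 0, so no difference was detectable at these numbers. The composite was more frequent in the intergenic peaks, 19.4% against 17.0%, by 2.37 points (0.73 to 4.02). That interval held 0 (1.29 points, -0.40 to 3.01) when non-coding genes also counted as genes. CG dinucleotides were less frequent, by -2.49 points (-4.61 to -0.36). The flanking windows differed in the same direction, with 46.3% around the intergenic and 49.7% around the intragenic peaks, so this is not a trait of the peaks alone.

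The 366 intergenic PU.1 peaks without CEBPA that were called in both lines differed more. ETS1-type sites were present in 17.2% of them (13.5 to 21.5) against 5.63% of the new peaks, a difference of -11.6 points (-15.8 to -7.98), whereas the PU.1-type shares were 16.4% and 17.2%, with a difference of 0.80 points (-3.49 to 4.44). The ratio of PU.1-type to ETS1-type shares was accordingly 0.952 in the shared peaks and 3.05 in the new ones. Composites went the other way, with 8.74% of the shared peaks and 19.4% of the new ones, a difference of 10.6 points (7.08 to 13.4). The new peaks had fewer E-boxes (-5.74 points, -9.88 to -2.29), GC boxes (-3.22, -5.72 to -1.66), CG dinucleotides (-12.2, -17.4 to -6.90) and RUNX sites (-3.71, -7.68 to -0.46). For CG dinucleotides the flanking windows also differed, with 46.3% around the new and 51.5% around the shared peaks. The ETS share was lower in the new peaks by -5.67 points (-11.0 to -0.34). This last interval held 0 when any PU.1- or CEBPA peak within 1000 bp excluded a peak, with -3.98 points (-9.67 to 1.70), and when mostly repeat-masked peaks were left out, with -3.93 points (-9.45 to 1.61).

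The 1455 new intergenic PU.1 peaks that overlapped a CEBPA peak had fewer sites of each PU.1 kind. ETS sites were present in 35.5% of them, so the peaks without CEBPA were higher by 9.96 points (7.04 to 12.8). PU.1-type sites differed by 6.06 points (4.002 to 7.98) and composites by 6.85 points (4.70 to 8.88). RUNX sites (-2.83 points, -4.83 to -0.97), E-boxes (-2.47, -4.44 to -0.64) and CG dinucleotides (-8.41, -11.4 to -5.42) were less frequent in the peaks without CEBPA. CEBP sites were present in 15.5% of the peaks with CEBPA and in 3.83% of those without, but absence of a CEBPA call chose the latter, so this difference is partly the selection.

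**Figure D2:**
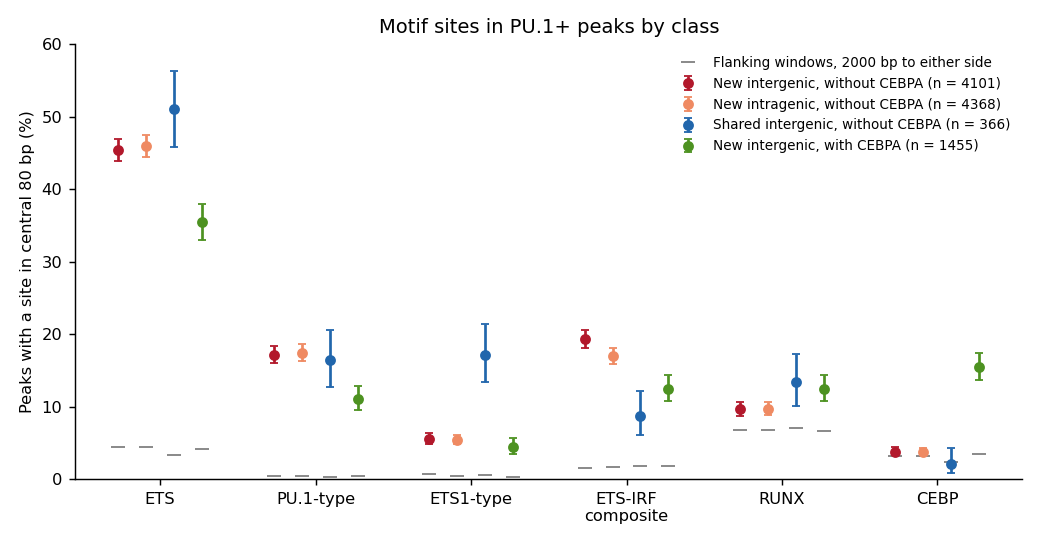
Share of peaks with a motif site in the central 80 bp (vertical axis, %) for 6 motifs in 4 classes of PU.1+ peaks. Points are shares with exact 95% intervals as bars, and grey dashes are the shares in windows 2000 bp to either side of the same peaks. New peaks without CEBPA lie close together inside and outside genes, shared peaks stand out by ETS1-type sites, and peaks with CEBPA by CEBP sites.

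Sequences of 8 bases were also ranked without a preset motif. Those most above the flanking windows were ACTTCCTC, which is the PU.1-type site on the other strand, in 17.2% of the peaks, AGAGGAAG in 18.4%, AGGAAGTG in 17.1%, AAGAGGAA in 18.1% and GGAAGTGA in 13.3%. Their flanking shares lay between 0.415% and 1.13%. Among the 2238 peaks without an ETS site, AAGAGGAA led, with 414 peaks (18.5%) against 1.21% of flanking windows. AGGAACTG followed as the first sequence with another ending of the core, in 226 peaks (10.1%) against 0.603%. Chosen after these values were seen, GGAACT was present in 19.6% of all 4101 peaks and 5.40% of flanking windows. Its share was 17.6% of all PU.1+ peaks and 18.7% of the new intragenic peaks. An ETS site, AAGAGGAA or GGAACT was held by 66.0% of the peaks (64.6 to 67.5) and by 10.5% of flanking windows. Any of the 3 was also held by 62.3% of all PU.1+ peaks and 65.6% of the new intragenic peaks, so this is not particular to the class. Of the sequences that lay below their flanking level, ACACACAC led, with 0.902% of the peaks against 3.15%.

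Of the 313 peaks without a GGAA core, 106 held AGAAGT, an ETS site with 1 changed base in the core (33.9%, 28.6 to 39.4). It was present in 5.58% of flanking windows that also lacked GGAA and in 15.0% of the peaks with a core. The longer AGAAGTGA was held by 42 (13.4%) against 0.797% of those windows. Both sequences were chosen after the ranked sequences were seen. In the peaks without a core, 68 AGAAGT sites lay in the middle 40 bp and 93 in the 80 bp around it. Examples, with AGAAGT in capitals, lay between *Bicra* and *Zfp541* at chr7:16049667-16049746 and between *Tctn1* and *Pptc7* at chr5:122281408-122281487.
Bicra-Zfp541: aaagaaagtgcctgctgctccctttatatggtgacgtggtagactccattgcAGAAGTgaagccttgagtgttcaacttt
Tctn1-Pptc7: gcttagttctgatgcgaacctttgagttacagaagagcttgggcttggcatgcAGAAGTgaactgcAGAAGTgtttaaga

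Most peaks with an ETS site had 1 (1553 peaks), while 294 had 2, 14 had 3 and 2 had 4. In the peaks with 2 sites, both lay on the same strand in 212 (72.1%, 66.6 to 77.2), and the starts of the sites were a median of 23 bp apart (quartiles 18 to 33). In flanking windows 22 held 2 sites, of which 11 were on the same strand. The same-strand share was 65.8% (59.8 to 71.5) in the new intragenic peaks and 65.5% (45.7 to 82.1) in the shared intergenic peaks. It was 66.0% (51.7 to 78.5) in the new intergenic peaks with CEBPA, and all these intervals overlap that of the class. The most frequent distance in the class was 20 bp, which 26 peaks had, 23 of them with both sites on the same strand (10.9% of the 212). Inside genes, 10 of the 177 same-strand pairs were 20 bp apart (5.65%). The count was 4 of 19 (21.1%) in the shared intergenic peaks and 1 of 35 (2.86%) in the new intergenic peaks with CEBPA. The spacing was thus not particular to the class. Read along the strand of the sites, 7 of the 14 bases between the members of a 20-bp pair had the same letter in over 50% of the 23 peaks. Of these, 3 were the G after the first site and the GA before the second, bases that also flank GGAAGT in the frequent sequences GAGGAAGT and AGGAAGTG of the class, and the other pairs were not compared in this way. Of the 23 windows, 5 (21.7%) were mostly soft-masked as repeats in the assembly, against 23 of the other 271 pairs (8.49%). These distances were chosen after the values were seen. Examples lay between *Tmsb4x* and *Tlr8*, a gene of an endosomal RNA receptor, at chrX:167210350-167210429 and between *Gm9918* and *Mfsd5* at chr15:102274134-102274213.
Tmsb4x-Tlr8: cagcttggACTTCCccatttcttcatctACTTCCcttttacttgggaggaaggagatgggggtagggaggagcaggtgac
Gm9918-Mfsd5: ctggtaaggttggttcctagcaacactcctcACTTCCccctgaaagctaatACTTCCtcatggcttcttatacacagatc

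The distance to the nearest protein-coding start had a median of 29.1 kb (quartiles 10.2 to 87.6 kb). It was 21.7 kb in the shared intergenic peaks and 29.0 kb in the new intergenic peaks with CEBPA. New intragenic peaks lay at a median of 10.3 kb, which reflects their position inside genes. Peaks 20 to 50 kb from a start were the most numerous of the distance bins, with 934 (22.8%), and 919 (22.4%) lay over 100 kb away. The farthest peak lay 1963 kb from a start, on chromosome 5 between *Pcdh7* and *G6pd2*. The ETS share varied little with distance, from 42.5% (38.2 to 46.8) at 1 to 5 kb to 48.1% (44.8 to 51.3) at 20 to 50 kb and 44.6% (41.4 to 47.9) beyond 100 kb, and these intervals overlap. Composites were present in 17.9% (15.5 to 20.5) at 20 to 50 kb, 24.0% (21.1 to 27.1) at 100000 to 500000 bp and 15.6% (9.81 to 23.1) of the 128 peaks farther away, so their share did not rise steadily with distance.

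**Figure D3:**
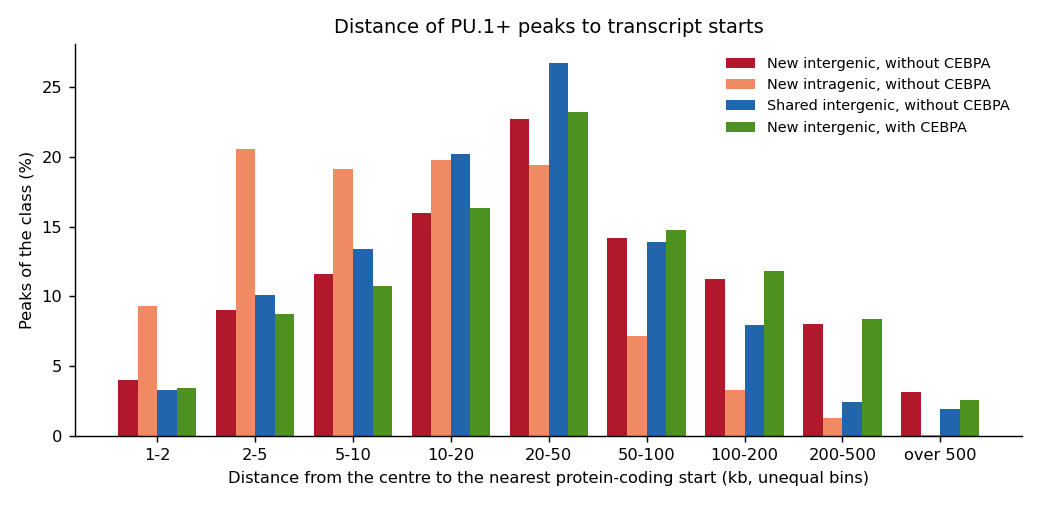
Share of the peaks of each class (vertical axis, %) by distance from the peak centre to the nearest protein-coding transcript start (horizontal axis, kb, bins of unequal width). Bars are the 4 classes, which all exclude centres within 1000 bp. The new intergenic peaks without CEBPA reach their highest share at 20 to 50 kb, and intragenic peaks lie closer to starts.

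At the limits of the selection, the centres just inside lay 1002, 1006 and 1010 bp from a start. Peaks that met the overlap conditions but were kept out as promoter peaks lay at 1000, 999 and 998 bp. The closest PU.1 peak of PU.1- cells to a kept peak lay 401 bp away from centre to centre, and a peak at 392 bp was kept out. For CEBPA peaks the values were 400 and 398 bp in PU.1- cells and 402 and 397 bp in PU.1+ cells.

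None overlapped a CEBPA peak, but 1902 of the 4101 peaks (46.4%) had a CEBPA peak of either line within 10 kb. That share was not computed for other classes. The nearest CEBPA peak was a median of 13.8 kb away in PU.1- cells and 15.5 kb in PU.1+ cells. It lay nearer in the new intragenic peaks, at 11.5 and 13.85 kb, and in the shared intergenic peaks, at 7.36 and 10.1 kb. The nearest PU.1 peak of PU.1- cells was a median of 73.7 kb away, and 1766 peaks (43.1%) had none within 100 kb. ETS sites were present in 47.2% of the peaks with no CEBPA peak within 10 kb and in 43.4% of the others, a difference of 3.73 points (0.67 to 6.77). Composites differed by 2.28 points (-0.15 to 4.69), an interval that holds 0.

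On chromosomes, the peaks ranged from 0.866 per Mb of intergenic sequence on chromosome X (102 peaks) to 4.38 on chromosome 19 (128 peaks), with a median of 2.78 over 20 chromosomes. Chromosomes 13 (3.81) and 10 (3.80) followed chromosome 19, and chromosome 14 (2.06) was the next lowest after X. As a share of all PU.1+ peaks of the same chromosome, the peaks made up 29.7% on chromosome X and between 20.9% (chromosome 11) and 32.8% (chromosome 17) on the others. The share on chromosome X thus lay within the range of the other chromosomes.

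**Figure D4:**
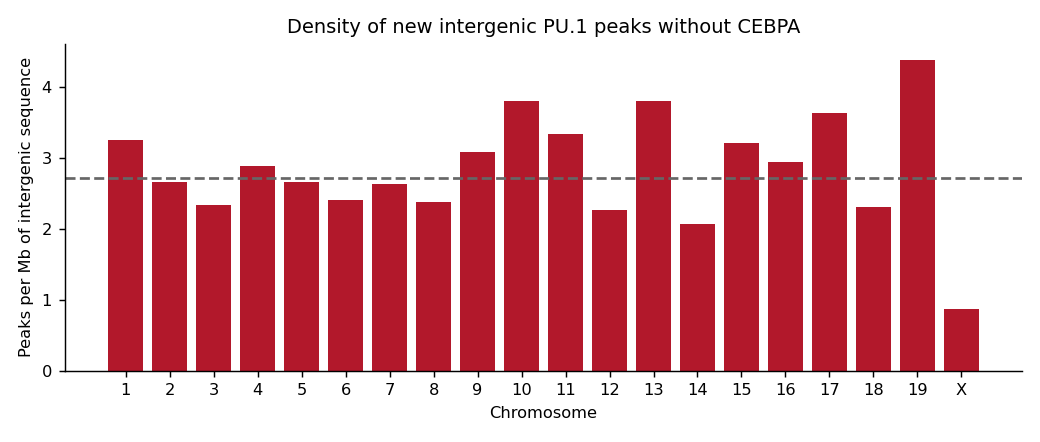
Number of new intergenic PU.1 peaks without CEBPA per Mb of sequence outside protein-coding genes and promoters (vertical axis) for each chromosome (horizontal axis). The dashed line is the value over all chromosomes, 2.72 per Mb. Chromosome 19 is highest and chromosome X lowest.

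Along the genome, 834 peaks (20.3%, 19.1 to 21.6) had another of the class within 10 kb, and 1495 (36.5%) had any other PU.1+ peak within 10 kb. Intragenic peaks were alike, at 21.7% (20.5 to 23.0). The rarer classes have fewer neighbours of their own class to begin with, so only the second measure can be set beside theirs. It was 42.9% (37.8 to 48.1) in the shared peaks and 45.7% (43.1 to 48.3) in the new peaks with CEBPA. Runs of peaks spaced by at most 10 kb comprised 323 pairs, 48 runs of 3 and 10 longer runs, while 3267 peaks stood alone.

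The longest run held 6 peaks over 13.5 kb between *2010109I03Rik* and *Ly6e*, the gene of a surface protein of the LY6 family. ETS sites were present in 4 of the 6 and composites in 3, and 1 other PU.1+ peak lay in the same span. A run of 5 peaks over 30.9 kb lay between *Ptprc*, which encodes the leukocyte antigen CD45, and *Atp6v1g3*, 61.6 kb from the former and 5.56 kb from the latter. ETS sites were present in 2 of them. The other run of 5, over 21.3 kb, lay between *B3gnt5* and *Klhl6*, with ETS sites in 3. No peak of these last 2 runs held a composite.

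Genes were assigned as the nearest protein-coding gene on each side within 50 kb. This gave a gene to 2793 peaks (68.1%, 66.7 to 69.5), on both sides for 1375, and left 1308 without a gene. Of 21951 protein-coding genes, 3153 (14.4%) received at least 1 peak, 2395 exactly 1, and 187 had 3 or more. A single peak can count for a gene on each side, so neighbouring genes are not independent. Expression was not analysed here, and an assigned peak does not show that a gene is controlled by it.

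Among the genes with the most peaks, *Ly6e* led with 8, between 4.40 and 36.3 kb from a start of the gene. ETS sites were present in 6 of the 8 and composites in 5. *Ccr3*, the eotaxin receptor, had 6 between 12.0 and 36.8 kb, with an ETS site in 3. *Sema4b*, a semaphorin gene, also had 6, of which 2 held a composite and 2 an ETS site. *Tgs1*, the gene of a cap hypermethylase of small RNAs, had 6 with no ETS site or composite in any of them. *2010109I03Rik* had 6, which it shared with *Ly6e*. With 5 each followed *N4bp1*, *Dennd1b*, *Atp6v1g3*, *Sorl1* and *Notch2*. The NOTCH2 receptor is required for several mature leukocyte types, and 3 of the 5 peaks at its gene held an ETS site. Genes with long intergenic neighbourhoods can receive more peaks, and the sequence that could be assigned ranged from 49.6 kb at *Sema4b* to 99.0 kb at *N4bp1*, *Atp6v1g3* and *Sorl1*.

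Lists of lineage genes differed in how often they carried these peaks. Of 49 monocyte and macrophage surface receptor genes, 22 had a peak, 44.9% (30.7 to 59.8) against 14.4% of all protein-coding genes. Allowing for the intergenic sequence available to each gene, they received 17.8 assigned peaks per Mb against 5.01 per Mb over all genes. *Ly86*, a partner of the receptor CD180, had 4 peaks, the nearest 11.7 kb from a start. *Fcgr2b* had 3, the nearest at 2.40 kb, and 6 other intergenic PU.1+ peaks. *Sirpa* had 3, the nearest at 6.51 kb.

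Of 40 macrophage effector and lysosomal genes, 18 had a peak (45.0%, 29.3 to 61.5), with 14.7 per assignable Mb. *Ctsd*, the lysosomal protease cathepsin D, had 3 peaks between 5.25 and 10.1 kb from a start, with an ETS site in 2. *Mpeg1* had 2, both with a PU.1-type site, at 3.21 and 25.5 kb. *Acp5*, tartrate-resistant acid phosphatase of osteoclasts and macrophages, had 2 without an ETS site or composite. Macrophage transcription factor genes had a peak in 20 of 46 (43.5%, 28.9 to 58.9), with 14.0 per assignable Mb. *Fos*, the gene of an AP-1 subunit, had 4. *Batf* and *Batf3*, AP-1 family genes, had 3 each, and all 3 at *Batf3* held an ETS site. Chemokine and cytokine genes had a peak in 18 of 40 (45.0%, 29.3 to 61.5), with 12.8 per assignable Mb. *Csf1*, the macrophage growth factor, had 3 between 10.7 and 44.5 kb. The chemokine genes *Ccl9* and *Ccl5*, both on chromosome 11, had 2 each.

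Genes of other lineages were also represented. Granulocyte genes had a peak in 9 of 30 (30.0%, 14.7 to 49.4), with 14.5 per assignable Mb. *Gfi1*, a repressor required for neutrophils, had 4, *Camp*, the cathelicidin gene, had 2, and both peaks at *Ltf*, lactoferrin, held an ETS site and a composite. B-cell genes had a peak in 11 of 30 (36.7%, 19.9 to 56.1), with 3 each at *Bcl6* and *Tnfrsf13b* and 2 at *Bank1*, and 12.5 per assignable Mb. Stem and progenitor genes had a peak in 9 of 30 (30.0%, 14.7 to 49.4) but 7.17 per assignable Mb, their genes having the longest assignable sequence, with a median of 67.6 kb. *Myb*, a regulator of progenitor growth, had 4 peaks at 27.8 to 40.7 kb, of which 2 held a composite and none an ETS site. *Hhex* had 2 and *Tal1* had 1.

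T-cell genes had a peak in 8 of 30 (26.7%, 12.3 to 45.9), with 10.7 per assignable Mb. *Ctla4*, *Icos* and *Cd28*, neighbouring genes of T-cell co-receptors, had 4, 3 and 2, and some of these peaks count for neighbours on both sides. Erythroid and megakaryocyte genes had a peak in 5 of 30 (16.7%, 5.64 to 34.7), with *Cd9* and *Tfrc* at 2 each and *Hbb-bt* at 1. Neuronal genes were lowest, with 3 of 30 (10.0%, 2.11 to 26.5) and 4.16 per assignable Mb. *Syn2*, a synaptic vesicle gene, had 5 peaks, and *Gad2* and *Nefm* had 1 each. The intervals of the erythroid, T-cell and neuronal lists hold the 14.4% of all genes, and those of the macrophage, cytokine, granulocyte, B-cell and stem lists do not. For the granulocyte and stem lists the lower bound of 14.7% lay next to it. The lists were chosen with earlier results of these data known, and neighbouring genes of a list can share a peak. The intervals therefore describe the counts and are no test of the lists.

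**Figure D5:**
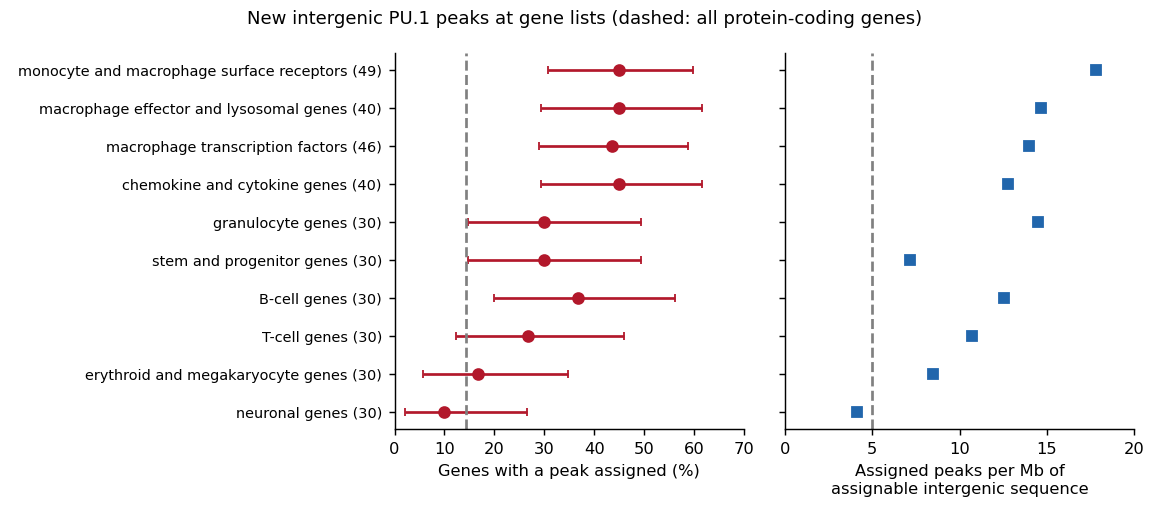
Left, share of the genes of each list with at least 1 new intergenic PU.1 peak without CEBPA assigned within 50 kb (horizontal axis, %, exact 95% intervals, number of genes in parentheses). Right, assigned peaks per Mb of intergenic sequence available to the same genes. Dashed lines are the values over all protein-coding genes, 14.4% and 5.01 per Mb. The macrophage and cytokine lists lie between 43.5% and 45.0%, and the neuronal list is lowest in both panels.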

How the data were processed

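ChIP-Seq peak lists of 4 libraries were used, for PU.1 and CEBPA in PU.1- and PU.1+ cells. The authors aligned reads to mm10 and called peaks, and the submitters' processing notes name Bowtie2 2.0.6 and MACS2 2.0.10. The deposited lists hold coordinates only, with no score, coverage or count, and the calling threshold is not given in the sources used here. The 4 other samples of the series, H3K27Ac and IgG, were not analysed here.

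Peaks that shared 1 bp or more were treated as overlapping. Positions came from the GENCODE M21 annotation, and sequences from the RefSeq copy of GRCm38 (mm10), with chromosome lengths that matched. Motifs were exact matches on both strands in the central 80 bp. Peaks were assigned to the nearest protein-coding gene on each side within 50 kb. Assignable sequence is the intergenic sequence in which a peak would have been assigned to the gene. Repeat-masked peaks had over 50% soft-masked bases in that window. The peaks, motifs and gene lists were chosen with earlier results of these data known.

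Genes named were the 10 with the most peaks and the 3 with the most in each of 10 lists, ties broken by the shortest distance. Regions named were the 3 longest runs, the 3 peaks with the most ETS sites, the farthest peak, those at the limits, and the peaks nearest to starts of named macrophage genes. The sequence of 1 region that this rule selects is not reported here. Other regions were chosen after their values were seen. In the gene lists, 1 of 356 genes was not matched among protein-coding genes. With 1 library per antibody and clone no test was run. Alternatives for overlap, promoters, genes, chromosomes, window, flanks, assignment and spacing were computed. Overlap, motif and assignment steps were tested on simulated data, and overlaps also against bedtools 2.31.1. Work was done in Python 3.11.15 with pandas 2.3.3, numpy 2.4.6, scipy 1.17.1 and matplotlib 3.10.9.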

Additional observations from a re-analysis of the deposited data

How the results depend on the processing

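No paired analysis was possible because each group has 1 library, and a stricter peak threshold could not be tried because the lists carry no scores. The number of peaks ranged from 3411 (genes of every type) to 4552 (centres within 100 bp counted as shared), and 83.2% to 100.0% of the 4101 were kept. The ETS share rose to 60.2% in the central 200 bp and 66.3% in the whole peak, against 11.8% and 22.5% of flanking windows, so the ratio of peaks to flanks fell. The PU.1-type share rose to 23.5% and 25.3%, and the composite share to 27.2% and 30.7%. The ETS1-type difference from the shared intergenic peaks became -18.0 and -17.4 points, against -11.6 points in the central 80 bp. The ETS difference from the shared intergenic peaks was -3.98 points when peaks within 1000 bp of a PU.1- or CEBPA peak were excluded and -3.93 points without mostly repeat-masked peaks, an alternative chosen after seeing the data, and both intervals held 0. The share of peaks with another within 10 kb was 21.6% with an overlap of 50%, 23.7% with centres within 100 bp and 18.1% with the 1000-bp rule, and 12.5% and 30.4% within 5 and 20 kb. The share of genes with a peak was 15.4% with centres within 100 bp, 12.9% with the 1000-bp rule, 13.0% with promoters of 2500 bp, 12.7% with genes of every type, and 9.93% and 16.7% with assignment within 20 and 100 kb. The share of peaks with a gene was 66.3% with promoters of 2500 bp, 69.9% with genes of every type, and 47.1% and 80.6% within 20 and 100 kb. With genes of every type the median distance to a start fell to 12.4 kb, against 29.1 kb, because more starts count. At 20 kb the share of genes with a peak was 32.7%, 27.5%, 30.4% and 40.0% for the macrophage receptor, effector, transcription factor and cytokine lists. It was 36.7% for the B-cell, 30.0% for the granulocyte and 23.3% for the stem and progenitor list, against 9.93% of all genes, so 3 of the former 4 lists lay below the B-cell list.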

Other observations

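A minority of the peaks lay mostly in repeat-masked sequence. Mostly soft-masked windows made up 509 of the 4101 (12.4%, 11.4 to 13.5) against 25.8% of flanking windows. They made up 9.46% of the new intragenic peaks, 7.10% of the shared intergenic peaks and 5.09% of the new peaks with CEBPA. ETS sites were less frequent in the masked peaks than in the others, 36.7% against 46.7%, by -9.92 points (-14.3 to -5.35). Composites were more frequent, 26.3% against 18.4%, by 7.95 points (4.09 to 12.1). This split was chosen after the values were seen.

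Of the sequences of 16 bases that recurred among the peaks, leaving out simple repeats, the most frequent was held by 17 of the 4101 on 11 chromosomes, and none of their 8202 flanking windows held it. The share was 0.415% (0.242 to 0.663). The new intragenic peaks held the sequence in 10 of 4368 cases (0.229%, 0.110 to 0.421). It was found in none of the 366 shared intergenic peaks or the 1455 new peaks with CEBPA, where a count of 0 leaves upper limits of 1.00% and 0.253% (exact 95% intervals). These intervals overlap, and the sequence was chosen for its frequency in the class, which favours the class over flanking windows and other peaks. No difference between the classes is thus shown. The 16 bases contain a composite with 2 bases between the cores. In the assembly they occur 207 times on both strands, and 23 of these (11.1%) lay within the 400 bp of a peak of the class. Of the 17 windows, 10 were mostly soft-masked and 6 also had an ETS site. Examples from the forward strand of mm10, with the 16 bases in capitals, lay between *Slc35b4* and *Akr1b3* at chr6:34244531-34244610, between *Tmprss2* and *Ripk4* at chr16:97719752-97719831 and between *Nupl2* and *Kcnh2* at chr5:24231108-24231187.
Slc35b4-Akr1b3: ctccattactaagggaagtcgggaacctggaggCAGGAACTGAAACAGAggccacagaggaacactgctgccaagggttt
Tmprss2-Ripk4: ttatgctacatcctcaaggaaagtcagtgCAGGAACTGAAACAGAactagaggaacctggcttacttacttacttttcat
Nupl2-Kcnh2: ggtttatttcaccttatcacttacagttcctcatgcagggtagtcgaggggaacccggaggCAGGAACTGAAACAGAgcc

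Genes that do not code for protein held 589 of the peaks (14.4%), of which 537 lay in long non-coding RNA genes. The share of intergenic sequence inside such genes was not computed, so the 14.4% has no background beside it. ETS sites were present in 49.1% of the 589 (45.0 to 53.2). They were present in 44.85% (43.2 to 46.5) of the 3411 peaks outside every annotated gene and over 1000 bp from every start, and these intervals overlap. Chosen after their values were seen, the host genes *B530045E10Rik*, *Gm14005*, *Gm35154* and *Gm41335* had 6 peaks each, the highest count. *B530045E10Rik* (124.2 kb on chromosome 10) lay 31.4 kb from *Dusp6*, *Gm14005* (324.4 kb on chromosome 2) 15.8 kb from *Bcl2l11*, the gene of the cell-death protein BIM, and *Gm35154* (90.4 kb on chromosome 10) 70.2 kb from *Prdm1*, which encodes the repressor BLIMP1. *Gm41335* (541.5 kb on chromosome 15) lay 57.7 kb from *Gsdmc*. These distances run from the ends of the host genes, not from the peaks inside them. The genes *2310067P03Rik* and *Gm36723* and the antisense gene *Junos*, beside the AP-1 gene *Jun*, held 5 each. By the assignment within 50 kb, *Jun* itself had 1 peak, 31849 bp from the gene.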
